A study of Argopecten irradians irradians x Argopecten purpuratus with 6 samples.

Results

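Genes of moderate to high expression whose levels in orange and in white adductor muscles did not overlap were collected from 6 RNA-seq libraries of scallops. A gene was eligible if its identifier started with evm (the predicted gene models), its mean over the 6 libraries was at least 10 FPKM, no library was under 0.1 FPKM, and it was not among the 100 genes of highest mean. FPKM (fragments per kilobase) take account of gene length and of the number of reads that fell on genes in each library. The gap of a gene was the lowest value of one colour divided by the highest value of the other, and a gene was kept when its gap was at least 1.3. Of 29249 genes in the deposited values, 3393 were eligible, and 191 met the gap, 104 of them higher and 87 lower in orange muscle. The limit of 300 genes that the rule sets was not reached.

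The orange group consisted of 3 libraries of orange adductor muscle from QN Orange scallops and the white group of 3 libraries of white adductor muscle from Bohai Red scallops. These strain names come from the published methods, whereas the sample labels give Bohai Red for both colours. All animals were 1 year old and descended from crosses of the bay scallop (Argopecten irradians irradians) with the Peruvian scallop (Argopecten purpuratus). Muscles were pooled by 3 for each library, so a value describes a pool, and muscle colour cannot be told apart from strain. The colours were compared to find genes that may take part in the colouring of the muscle.

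The adductor muscle closes the scallop shell. It is made mostly of striated fibres used in swimming, with a smaller smooth part that holds the valves shut. Carotenoids are yellow to red pigments of plants and algae that reach a scallop through its diet. How much of them a tissue holds depends on uptake, transport, deposition and breakdown, and other pigments such as melanins can add to its colour. The identifiers come without gene names, and therefore neither the function of a gene nor the muscle markers of the samples could be checked here. In whole tissue, a lower value can stand for fewer cells of one type or for less RNA per cell, which cannot be told apart.

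The 191 genes made up 5.63% of the eligible genes, with 3.07% higher and 2.56% lower in orange muscle. Without the minimum on the gap, the colours did not overlap in 22.3% of the eligible genes, 11.0% higher and 11.4% lower. These values chose the genes, so all differences between the colours given for them are descriptions and carry no test. Among the 104 genes higher in orange muscle, the ratio of the mean of the orange to the mean of the white libraries ran from 1.55 to 30.3, with a median of 2.1. Among the 87 lower genes, the ratio of white to orange means ran from 1.48 to 10.3, with a median of 2.33. A ratio of 2 was reached by 119 of the 191 genes, against 157 of the other 3202 eligible genes, and a ratio of 4 by 26 and 17. The largest gaps lay on the orange side. All of the 10 largest gaps, 18 of the 25 largest and 33 of the 50 largest belonged to genes higher in orange muscle.

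**Figure D1:**
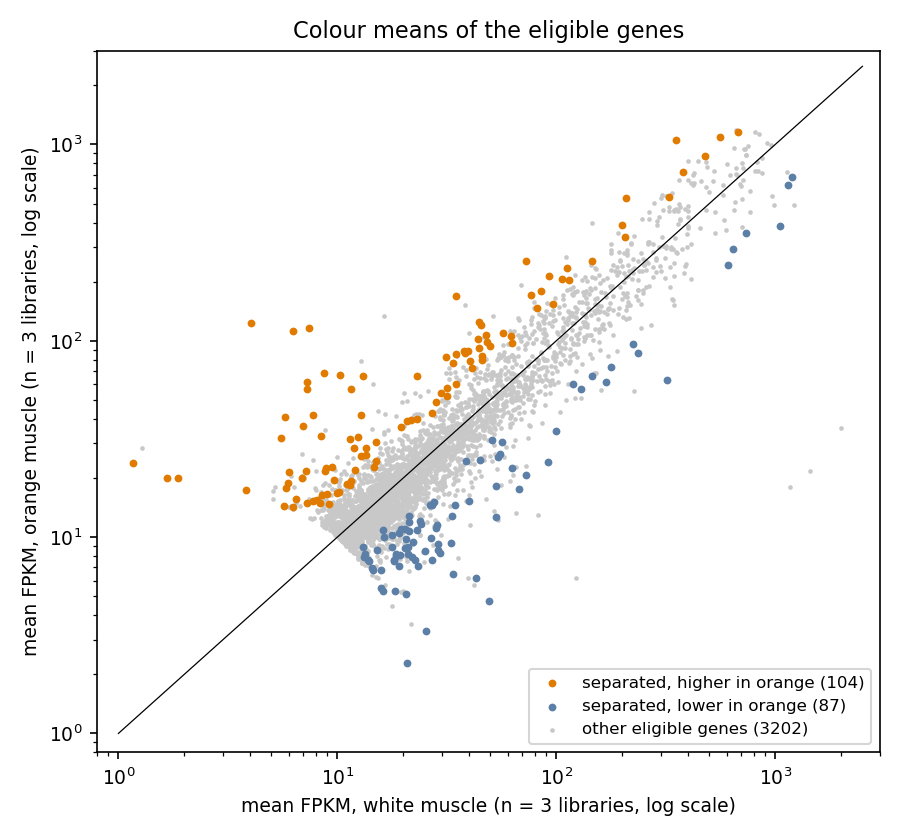
Mean FPKM of each eligible gene in orange (vertical axis) against white muscle (horizontal axis), both on log scales, with the line of equal means. Orange points are the 104 genes higher and blue points the 87 genes lower in orange muscle, and grey points the other 3202 eligible genes, among them 157 with a ratio of means of at least 2 that did not meet the gap.

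Reads assigned to genes, recovered from the spacing of the FPKM values, numbered 27778084 to 36093567 per orange library and 27564653 to 29303613 per white library. Pairs of orange libraries had a Pearson's r of 0.871 to 0.947 over the log2 values of the eligible genes, pairs of white libraries one of 0.871 to 0.906 and pairs of both colours one of 0.774 to 0.905, as a description over genes that are not independent. Orange replicate 1 had its highest r with white replicate 1, 0.891, and white replicate 2 had its highest with orange replicate 2, 0.905. The other libraries had theirs with a library of their own colour. The median log2 fold change of the 15341 genes that averaged 0.5 FPKM or more was -0.12, toward white. After scaling of the libraries by median ratios it was -0.00047 over 15295 genes, a shift that such scaling brings about by construction. This scaling changed which genes met the rule. It gave 217 genes, 145 higher and 72 lower in orange muscle, against 104 higher and 87 lower in the deposited values, so the share of higher genes was 66.8% in place of 54.5%. Of the 191 genes, 149 remained, 92 of the higher and 57 of the lower, and the colours of 190 still did not overlap.

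The widest separation was found for evm.TU.Contig1219.18, which had 159, 125 and 84.3 FPKM in orange replicates 1, 2 and 3, against 3.90, 3.48 and 4.78 FPKM in white replicates 1, 2 and 3. Its lowest orange value was 17.6 times its highest white value, and the means were 123 ± 37.6 and 4.05 ± 0.668 FPKM (SD, n = 3 each). The next gene by gap, evm.TU.Contig0.23, had 58.5, 134 and 146 FPKM in the orange libraries, against 3.60, 6.42 and 8.83 FPKM in the white ones. In both genes the white libraries held a low but measured level, with at least 86 reads in every library. The next one, evm.TU.Contig227.87, was more even within the colours, with 56.7, 48.1 and 65.8 FPKM in orange and 6.47, 7.35 and 7.92 FPKM in white muscle. Its log2 fold change from limma, on log2(FPKM + 0.5), was 2.88 with a standard error of 0.206.

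Values for evm.TU.Contig434.55 were 61.4, 54.3 and 54.4 FPKM in orange and 11.7, 9.90 and 13.1 FPKM in white muscle. In evm.TU.Contig731.19 they were 62.5, 59.2 and 76.6 FPKM in orange against 16.2, 11.8 and 11.3 FPKM in white muscle. These resembled each other in level and in ratio, with orange means 4.91 and 5.06 times the white means. The orange libraries of evm.TU.Contig1410.7 were less alike, at 162, 42.9 and 143 FPKM, against 9.13, 7.83 and 5.23 FPKM in the white libraries. Replicate 2 was the low orange library there, and with white replicate 1 it set the gap of 4.70.

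By the ratio of means, evm.TU.Contig220.46 came second after evm.TU.Contig1219.18, at 20.6 times the white mean. Its orange libraries spread from 3.65 through 23.8 to 44.3 FPKM, against 1.48, 0.921 and 1.08 FPKM in the white libraries, so the gap was 2.47. Without orange replicate 3 its log2 ratio of orange to white means was 3.56, against 4.36 with it. The short gene evm.TU.Contig468.17, of 153 bases, had 14.6, 13.2 and 32.2 FPKM in orange and 2.47, 0.948 and 1.56 FPKM in white muscle. It rests on the fewest reads of all 191 genes, 62, 63 and 178 in orange against 11, 4 and 7 in white muscle. Relative to the library totals, orange reads were 12.5 times the white reads. An exact 95% interval was 8.08 to 20.2 for counting error alone, and it is too narrow where both reads of a pair were counted.

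**Figure D2:**
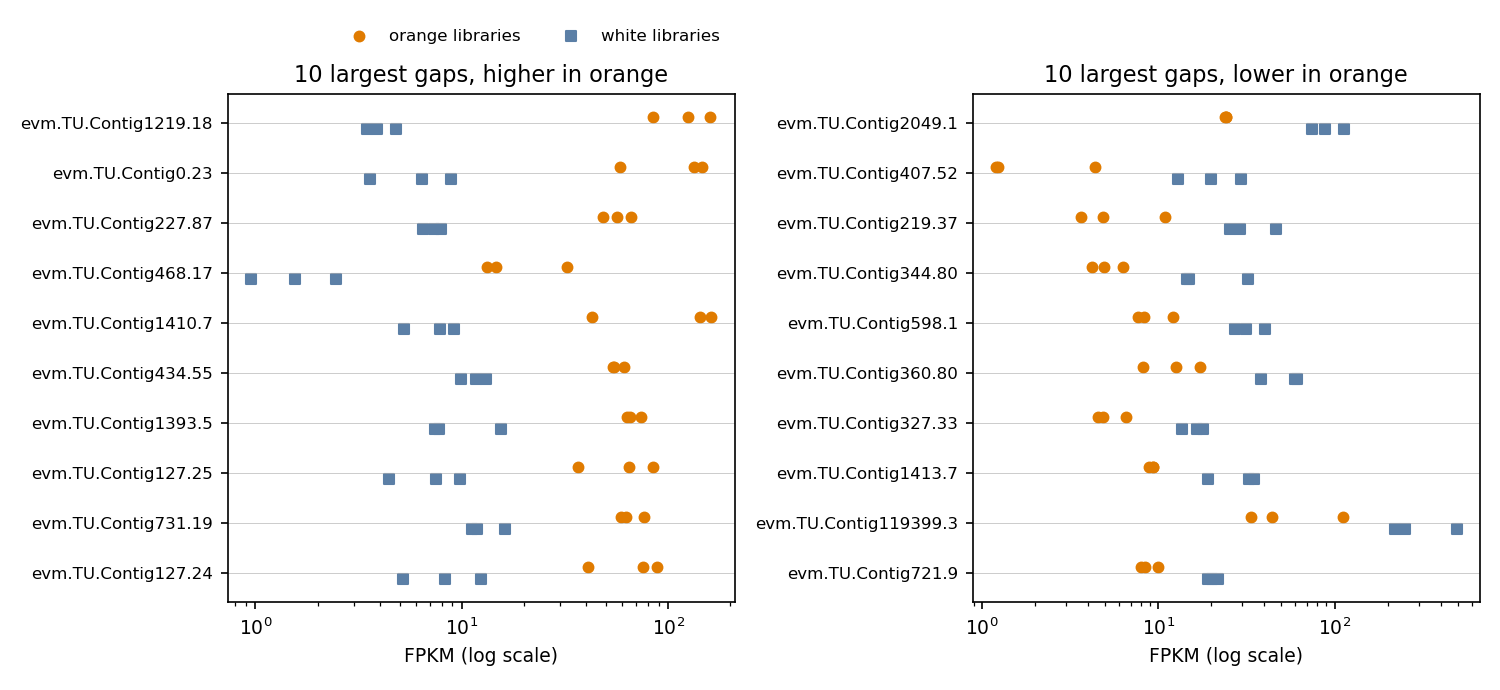
FPKM on a log scale in each library for the 10 genes with the largest gaps in each direction, higher (left) and lower (right) in orange muscle. Circles are the 3 orange and squares the 3 white libraries, and no gene has overlapping colours, with gaps of 3.31 to 17.6 on the left and 1.92 to 3.06 on the right.

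Among genes lower in orange muscle the widest gap, 3.06, belonged to evm.TU.Contig2049.1. It had 24.2, 24.3 and 24.0 FPKM in orange and 112, 88.2 and 74.4 FPKM in white muscle. The orange level was nearly constant, with an SD of 0.190 FPKM around a mean of 24.2 FPKM, and the white level was 3.79 times as high on average. For evm.TU.Contig407.52 the orange values were 4.40, 1.24 and 1.202 FPKM, against 19.98, 29.3 and 13.0 FPKM in white muscle. Its mean ratio of white to orange, 9.10, was the second highest of the lower genes, and every library held at least 58 of its reads. Orange replicate 1 weighed on it, as the log2 ratio of orange to white means was -4.09 without that library, against -3.19 with it.

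The gene evm.TU.Contig219.37 had 4.90, 11.0 and 3.68 FPKM in orange against 25.5, 29.0 and 46.6 FPKM in white muscle. In evm.TU.Contig360.80 the values were 17.2, 12.6 and 8.18 FPKM in orange against 59.4, 38.1 and 61.6 FPKM in white muscle. White replicate 2 was the lowest white library of the second of these genes and lay between the others in the first. Without orange replicate 2 the log2 ratio of evm.TU.Contig219.37 was -2.98, against -2.37 with it. For evm.TU.Contig344.80, evm.TU.Contig598.1, evm.TU.Contig327.33, evm.TU.Contig1413.7 and evm.TU.Contig721.9, orange means were 5.15 to 9.37 FPKM and white means 16.1 to 32.9 FPKM, with ratios of white to orange between 2.33 and 4.01. Another of the 10, evm.TU.Contig119399.3, stood at a higher level, with 44.3, 112 and 33.8 FPKM in orange against 493, 221 and 250 FPKM in white muscle. Orange replicate 2 was the high orange library, and without it the log2 ratio was -3.04, against -2.34 with it.

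The largest ratio of means among the lower genes came from a single library. In evm.TU.Contig325.20, orange values were 4.11, 4.94 and 5.20 FPKM, against 12.2, 8.53 and 126 FPKM in white replicates 1, 2 and 3. Its white mean was 10.3 times the orange mean, while white replicates 1 and 2 were within 3 times every orange value. Without white replicate 3 its log2 ratio of orange to white means was -1.13, against -3.37 with it. It was 1 of 11 genes, 5 higher and 6 lower in orange, in which 1 library of the higher colour was at least 2 times the next of that colour. The counterpart among the higher genes was evm.TU.Contig224.18, at 47.6, 6.16 and 6.44 FPKM in orange against 3.40, 0.484 and 1.76 FPKM in white muscle. It and the other genes named for being steady or uneven were chosen after their values were seen.

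In absolute level, 32 of the 191 genes averaged at least 100 FPKM, 16.8% of them against 12.02% of the other eligible genes, and 9 averaged at least 500 FPKM. The 2 most abundant genes higher in orange muscle differed by less than 2-fold. One, evm.TU.Contig126.23, had 1012, 1274 and 1182 FPKM in orange and 602, 690 and 738 FPKM in white muscle. The other, evm.TU.Contig120.11, had 836, 1285 and 1146 FPKM in orange against 594, 519 and 560 FPKM in white muscle. Behind these ratios, 1.71 and 1.95, stood 148265 and 138781 reads in the white libraries alone.

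A larger ratio at this level was seen in evm.TU.Contig176.66, with 891, 694 and 1588 FPKM in orange against 294, 412 and 352 FPKM in white muscle. The ratio of its means was 3.0, and the spread within orange, 1058 ± 470 FPKM (SD, n = 3), was wide. By contrast the white libraries of evm.TU.Contig82.9 were nearly equal, at 478, 476 and 471 FPKM, below orange values of 806, 970 and 856 FPKM. Its limma standard error, 0.138 for a log2 fold change of 0.88, was the smallest of the 191 genes. The fifth, evm.TU.Contig228.122, had 670, 781 and 728 FPKM in orange and 298, 377 and 465 FPKM in white muscle.

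Genes lower in orange muscle reached the same levels. The most abundant was evm.TU.Contig284.32, at 679, 672 and 705 FPKM in orange against 932, 1418 and 1212 FPKM in white muscle. Here the orange libraries were the even ones and the white libraries the spread ones, a pattern that evm.TU.Contig313.14 shared with 280, 295 and 300.3 FPKM in orange against 511, 759 and 656 FPKM in white muscle. In evm.TU.Contig350.35 both colours were spread, with 702, 677 and 489 FPKM in orange and 1088, 1378 and 949 FPKM in white muscle. Orange replicate 2 stood out as high in evm.TU.Contig2046.3, at 297, 619 and 240.0 FPKM in orange against 945, 1229 and 972 FPKM in white muscle. The same library was the highest orange one in evm.TU.Contig1357.5, at 338, 512 and 206 FPKM in orange against 782, 734 and 698 FPKM in white muscle.

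**Figure D3:**
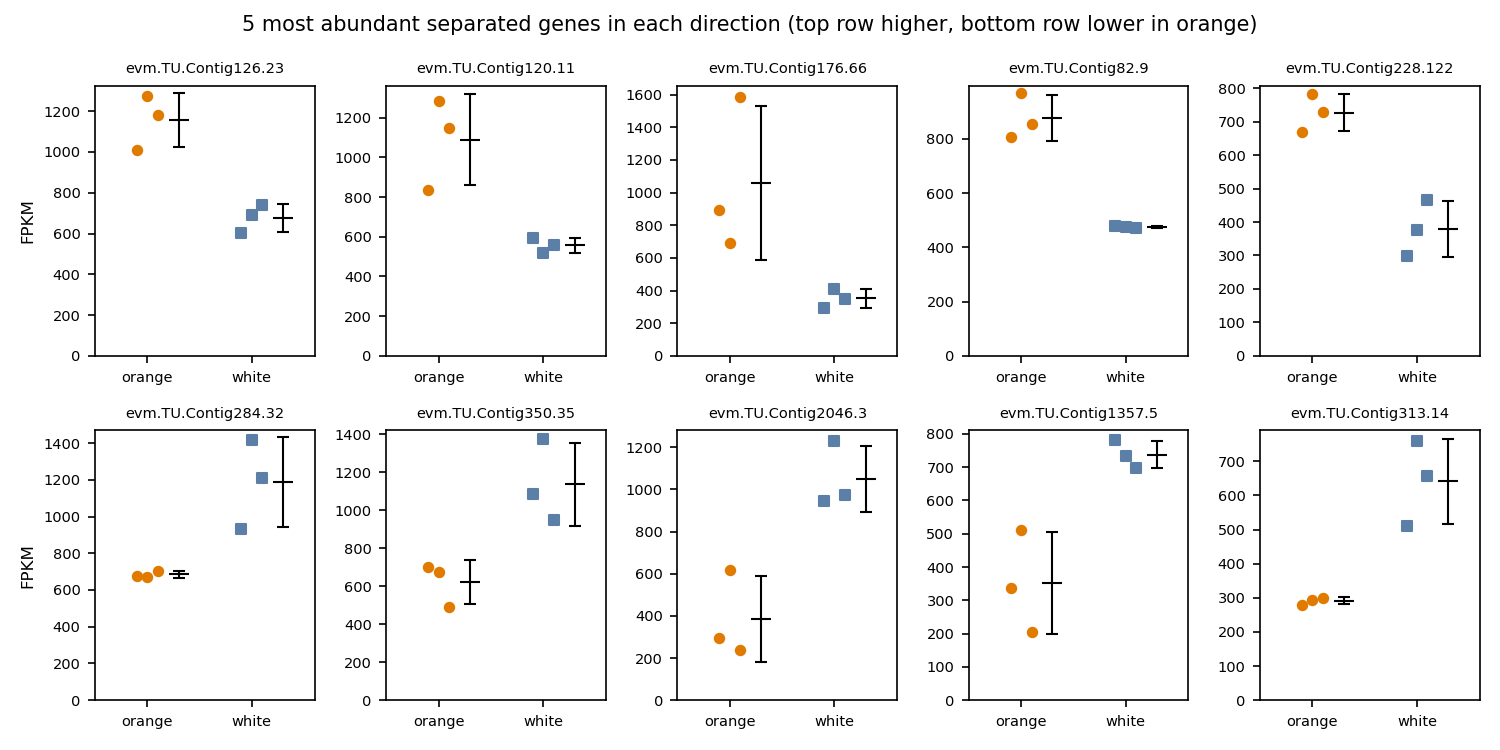
FPKM in each library for the 5 genes of highest mean in each direction, with orange libraries left and white libraries right in every panel and the mean ± SD (n = 3) beside the points. The top row is higher and the bottom row lower in orange muscle, and ratios of the means lie between 1.71 and 3.0 in the top row and between 1.73 and 2.72 in the bottom row.

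In the deposited values, the balance of higher and lower genes varied with the level of the gene. Of the 1628 eligible genes that averaged 10 to 20 FPKM, 34 were in the higher and 50 in the lower set. From 20 to 50 FPKM it was 27 higher and 21 lower genes among 1003. Between 50 and 100 FPKM there were 23 higher and 4 lower genes among 345, and at 100 FPKM or more 20 higher and 12 lower genes among 417. The rule used these same values, and the counts by level were not repeated after scaling by median ratios. The median mean level was 36.7 FPKM in the higher and 18.0 FPKM in the lower set, against 20.7 FPKM over the other eligible genes. Summed over the 104 higher genes, the values made up 2.06% to 2.4% of all FPKM in the orange libraries and 0.993% to 1.12% in the white libraries. For the 87 lower genes it was 0.558% to 0.799% in orange and 1.52% to 1.64% in white muscle. All 191 together held 2.76% to 3.03% of the FPKM in orange and 2.51% to 2.76% in white muscle. The sets were chosen by their direction, and the sums give only their size in the library.

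Some genes hardly varied within a colour. In evm.TU.Contig244.20 the orange values were 16.7, 16.8 and 16.8 FPKM, a coefficient of variation of 0.345%, against 9.96, 9.72 and 10.2 FPKM in white muscle. A similar gene in the other direction was evm.TU.Contig517.10, with 12.1, 11.4 and 8.77 FPKM in orange against 21.5, 20.6 and 21.5 FPKM in white muscle. Both differed by 2-fold or less between the colours. The spread of evm.TU.Contig517.10 was narrow in white muscle only, with coefficients of variation of 16.3% in orange and 2.44% in white muscle. Over all 191 genes the median coefficient of variation was 18.5% in orange and 16.1% in white muscle, and over the other eligible genes 20.4% and 21.4%, a difference that the rule itself favours. Of the 104 higher genes, 6 had orange libraries more than 3-fold apart and 26 had them within 1.2-fold. Of the 87 lower genes, white libraries were more than 3-fold apart in 5 and within 1.2-fold in 15.

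The library that set the edge of a gap was not the same in all genes. Among the 104 higher genes the lowest orange library was replicate 1 in 48 genes, replicate 2 in 32 and replicate 3 in 24. Replicate 3 was thus the lowest orange library in 23.1% of the higher genes, against 61.2% of all eligible genes. The rule used these same values, and it favours higher genes in which no orange library is low, so these shares are descriptions. The highest white library of the higher genes was replicate 1, 2 or 3 in 32, 38 and 34 genes. In the 87 lower genes, the highest orange library was replicate 2 in 57.5%, close to the 56.5% over all eligible genes, and replicate 3 in 10.3%. The lowest white library of these genes was replicate 2 in 37.9%, against 56.2% over all eligible genes. Orange replicate 3 and white replicate 2 had the smallest scaling factors of their colours, 0.870 and 0.927, and after scaling by median ratios, which was applied to this count only after seeing the data, they were the lowest of their colours in 39.4% and 34.1% of the eligible genes. After the same scaling, orange replicate 3 was the highest orange library in 61.5% of the higher genes, against 27.8% of all eligible genes. White replicate 2 was then the highest white library in 69.2% of the higher genes, against 41.9% of all eligible genes. The genes were chosen on the values before scaling, so these shares depend on that choice and are descriptions. Of the 191 genes, 149 met the rule after this scaling, as given above. How far the library levels shaped the choice of genes was not tested beyond this.

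**Figure D4:**
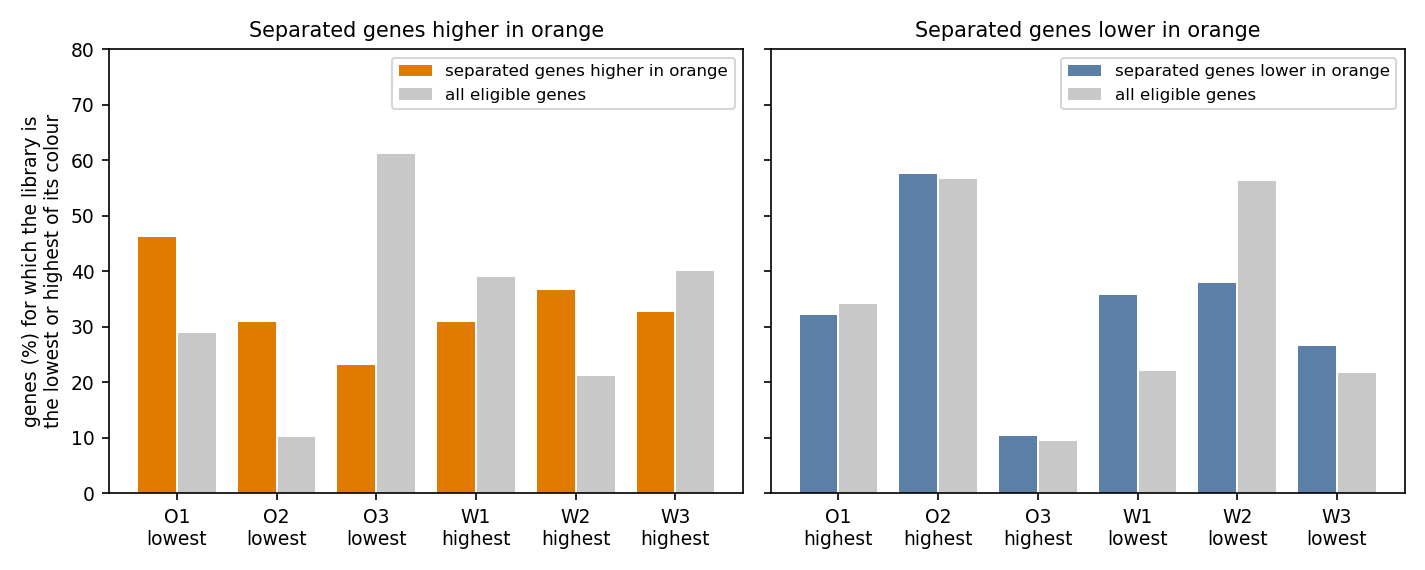
Percentage of genes in which each library was the lowest or the highest of its colour, with coloured bars for the separated genes and grey bars for all 3393 eligible genes. Genes higher in orange (left) are counted by the lowest orange and the highest white library and genes lower in orange (right) by the highest orange and the lowest white library, and orange replicate 3 is lowest in 23.1% of the higher genes against 61.2% of all eligible genes. The rule used the same values, so differences from the grey bars are descriptions.

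The identifiers give a contig and a running number, taken here as the order of genes on it, and positions in bases were not used here. The 191 genes lay on 145 contigs, 111 of which held 1 of them. Contig 127 held the most, 5 of its 22 eligible genes, 2 higher and 3 lower in orange muscle. Of the 34 contigs with at least 2 of the genes, 19 had them all in 1 direction and 15 in both. Directly next to another of the 191 were 19 genes, 9.95%, whereas 1.91% of the other eligible genes had one of the 191 next to them. With numbers at most 2 apart there were 11 such pairs, 10 of them in the same direction, which formed 9 runs of 2 genes and 1 run of 3. Strand and exact positions were not known, so neighbouring models could also share reads or be parts of 1 transcript.

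The run of 3 was evm.TU.Contig80.218, evm.TU.Contig80.219 and evm.TU.Contig80.220, of 225, 537 and 300 bases, all lower in orange muscle. The first had 78.6, 61.6 and 30.8 FPKM in orange against 127, 114 and 150 FPKM in white muscle. The second had 102, 76.9 and 40.8 FPKM in orange against 164, 176 and 195 FPKM in white muscle, and the third 123, 86.8 and 50.8 FPKM in orange against 196, 249 and 262 FPKM in white muscle. Orange replicate 1 was the highest and replicate 3 the lowest orange library in all 3 genes. The same order of the orange libraries appeared in the pair evm.TU.Contig127.24 and evm.TU.Contig127.25, in the other direction. They had 88.2, 75.7 and 41.1 FPKM and 84.4, 64.2 and 36.6 FPKM in orange, against 12.4, 8.33 and 5.21 FPKM and 9.75, 7.51 and 4.43 FPKM in white muscle. In every library evm.TU.Contig127.24 was the higher of the pair, and the order of the libraries within each colour was the same in both.

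The other named pairs varied in how far the neighbours matched. Next to evm.TU.Contig1393.5, with 73.7, 63.0 and 65.0 FPKM in orange against 7.39, 7.72 and 15.6 FPKM in white muscle, lay a gene of lower level in orange muscle. Values of evm.TU.Contig1393.4 were 24.7, 22.8 and 20.6 FPKM in orange against 7.42, 5.99 and 14.9 FPKM in white muscle. White replicate 3 was the high white library in both. The genes evm.TU.Contig248.95 and evm.TU.Contig248.96 were lower in orange muscle, with means of 242 and 34.5 FPKM in orange against 608 and 99.7 FPKM in white muscle. The pair evm.TU.Contig343.26 and evm.TU.Contig343.27 was higher, with means of 88.3 and 93.6 FPKM in orange against 39.5 and 49.7 FPKM in white muscle. A single pair, evm.TU.Contig225.114 and evm.TU.Contig225.115, ran in opposite directions, with means of 83.8 and 24.8 FPKM in orange against 45.6 and 45.0 FPKM in white muscle.

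**Figure D5:**
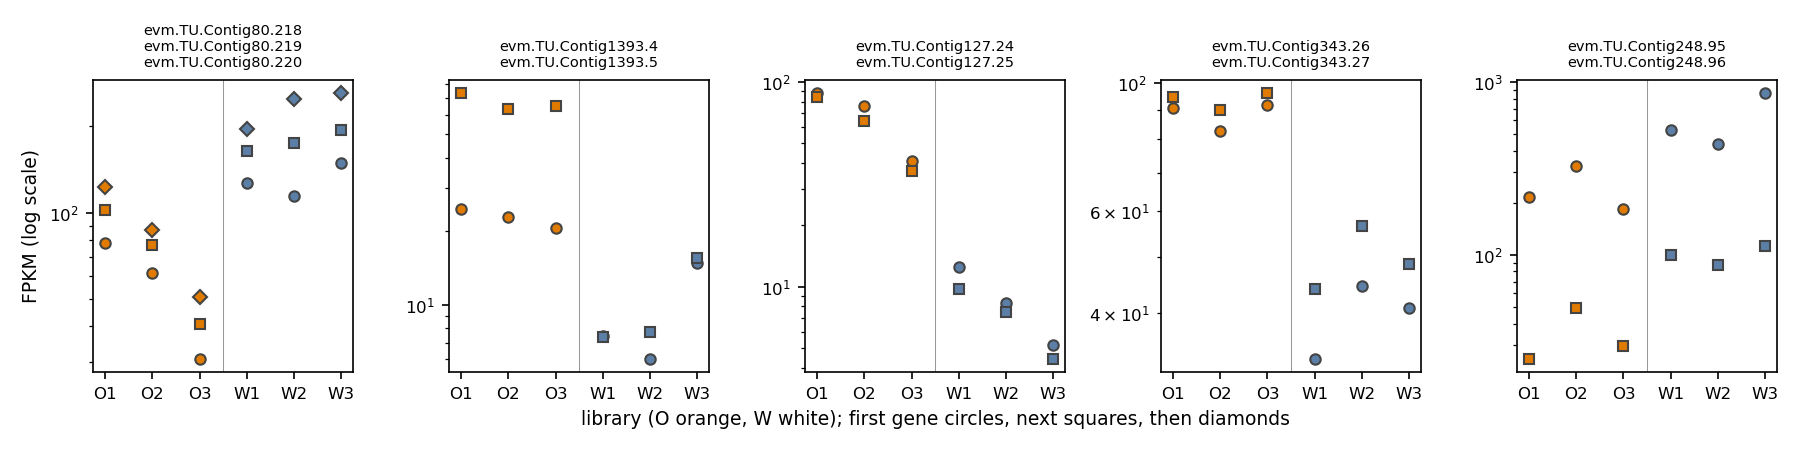
FPKM on a log scale in orange (O1 to O3) and white libraries (W1 to W3) for 5 runs of neighbouring genes named above the panels, with circles for the first, squares for the next and diamonds for the third gene. In the left panel all 3 genes of contig 80 are lower in orange. In the middle panel evm.TU.Contig127.24 is above evm.TU.Contig127.25 in each library, and both have the same order of libraries within a colour.

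Not all genes with wide gaps had such a neighbour. Beside evm.TU.Contig1219.18 the numbered neighbours evm.TU.Contig1219.17 and evm.TU.Contig1219.19 had means of 1.04 and 0.137 FPKM in orange against 1.31 and 0.229 FPKM in white muscle. Those of evm.TU.Contig0.23, evm.TU.Contig0.22 and evm.TU.Contig0.24, averaged at most 0.180 FPKM in either colour. On the lower side, evm.TU.Contig407.52 lay next to evm.TU.Contig407.51, which was among the 100 most abundant genes with a mean of 1600 FPKM in orange and 1707 FPKM in white muscle. That neighbour varied by less than 1.2-fold over the 6 libraries.

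The recovered length of the 191 genes was shorter than that of other eligible genes, with a median of 1320 against 1915 bases. Genes shorter than 1000 bases were 39.3% of the 191 and 25.05% of the others. By length, 8.33% of the eligible genes under 500 bases were among the 191, 8.70% of those from 500 to 1000 bases, 5.16% from 1000 to 2000 bases, 4.78% from 2000 to 4000 bases and 3.55% above. The length is the smallest at which all values are whole reads and can be too short where reads share a divisor. Short genes hold fewer reads at the same FPKM. The lowest library of a gene held 595 reads in the median over the 191 and 894 over the other eligible genes, and whether counting noise adds to the difference in length was not tested. In every library at least 100 reads were found for 169 of the 191 genes, and 4 genes had under 30 in a library.

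Of the 4 thinnest genes, evm.TU.Contig468.17 has been given. In evm.TU.Contig220.46 the white libraries held 34, 20 and 25 reads, and in evm.TU.Contig224.18 52, 7 and 27 reads. The only one of the 4 that was lower in orange, evm.TU.Contig15741.1, had 28, 45 and 48 reads in orange against 470, 286 and 65 reads in white muscle. Relative to the library totals, white reads were 7.504 times the orange reads. The exact 95% interval, 6.19 to 9.16 for counting error alone, is likewise too narrow where both reads of a pair were counted. White replicate 3 was close to the orange libraries in this gene.

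As another readout, the identifiers were compared with a supplementary list of proteins selected as differing between the muscles, without its values. The list held 74 proteins, of which 50 were eligible genes and 4 were among the 191, which is 5.41% of the list and 2.09% of the 191 genes. Of the other eligible genes 1.44% were on the list. Directions of the proteins were not used, so no agreement between mRNA and protein is read from this. By its own tests, which differ from the rule here, the paper reports no gene significant at both levels. The mRNA of evm.TU.Contig127.96 was 10.7, 3.62 and 4.28 FPKM in orange against 83.9, 25.9 and 18.8 FPKM in white muscle, with white replicate 1 far above the rest. Its log2 ratio of orange to white means was -1.85 without white replicate 1 and -3.44 without orange replicate 1, against -2.79 with all libraries. That of evm.TU.Contig289.89 was 12.3, 12.6 and 7.95 FPKM in orange against 18.9, 17.7 and 24.5 FPKM in white muscle. The other 2 were higher in orange muscle, with evm.TU.Contig131.77 at 24.3 ± 1.16 FPKM in orange and 15.0 ± 0.796 FPKM in white muscle, and evm.TU.Contig649.9 at 14.9 ± 0.239 FPKM in orange and 8.30 ± 1.47 FPKM in white muscle (SD, n = 3 each).

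The 3 genes just inside were evm.TU.Contig130.121, evm.TU.Contig1220.16 and evm.TU.Contig350.56, with gaps of 1.31, 1.31 and 1.302. Just outside lay evm.TU.Contig0.344, evm.TU.Contig405.34 and evm.TU.Contig126.131, the first with a gap of 1.299. The first of the genes outside had 268, 197 and 198 FPKM in orange against 411, 391 and 348 FPKM in white muscle. The last gene inside, evm.TU.Contig350.56, had 10.3, 10.9 and 10.3 FPKM in orange against 18.8, 14.1 and 24.7 FPKM in white muscle. The gaps inside and outside this edge were alike, and levels varied from gene to gene on both sides. Orange means were 9.89 to 106 FPKM inside and 15.3 to 221 FPKM outside.

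A fit of limma over 15341 genes, adjusted after Benjamini and Hochberg, called 39 of the 191 genes, 28 higher and 11 lower, where a call needed an adjusted p below 0.05 and a log2 fold change beyond 1 in either direction. Of all genes tested 1.43% were called, 0.652% higher and 0.776% lower, and of the eligible genes 1.15%, 0.825% higher and 0.324% lower. All 39 calls among the eligible genes were among the 191. The rule used the same libraries and contrast, so nothing is read from these counts. Fold changes over 1 on the log2 scale were reached by 117 of the 191. With orange replicate 1, 2 or 3 omitted, 14, 5 and 13 of the 191 were called, among 63, 21 and 70 calls over all genes. With white replicate 1, 2 or 3 omitted, 10, 33 and 11 of the 191 were called, among 55, 263 and 82 calls over all genes. The comparable counts with all libraries were 39 of the 191 among 219 calls. Each of these fits had 2 libraries in that colour, and the direction of the 191 genes is fixed by the way they were chosen.

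The number of genes that met the rule changed with single libraries. Leaving out a library cannot narrow the gap of a gene, since fewer libraries then have to stay apart. With no limit on the number, the count rose to 412, 335 and 236 when orange replicate 1, 2 or 3 was omitted, and to 260, 494 and 249 when it was a white one. Without orange replicate 2 or white replicate 2, more genes were lower than higher in orange muscle, 213 against 122 and 278 against 216. The balance of 104 higher and 87 lower genes therefore changed with single libraries as well as with the scaling.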

How the data were processed

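RNA from orange and white adductor muscle was sequenced in 6 libraries, 3 per colour, each a pool of 3 muscles. According to the submitters' processing notes the authors used HISAT2 2.0.4 and HTSeq 0.9.1, with a bay scallop genome that was unpublished then, and they deposited FPKM values per gene. For annotation, strand setting and counting mode, the sources used here give nothing. Libraries were grouped by the muscle colour in the labels.

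Reads per library and gene length were recovered from the spacing of the deposited FPKM values, with lengths of 100 to 60000 bases tried. All 3393 eligible genes gave whole reads within the rounding of the last digit, whereas after random shifts of at most 0.1% this held for 0 of 200 genes. Intervals treat reads as independent and hold for counting error alone. The paper describes paired-end reads, and the recovered totals exceed the number of pairs among its clean reads. Both reads of a pair therefore seem to be counted, at least in part, and the intervals are too narrow.

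The colours were compared over all genes that averaged 0.5 FPKM or more, using limma 3.58.1 (R 4.3.3) with a trend of variance on mean. Its input was log2(FPKM + 0.5), so changes of low genes are understated, and its p-values measure the spread between pools. Other steps used Python 3.11.15 with pandas 2.3.3, numpy 2.4.6 and scipy 1.17.1. The rule and limma were also run on simulated reads with planted changes of a single size, a single gene length and a single dispersion. That is simpler than these data, so it does not show how they perform here. The genes and lists were chosen with earlier results of these data known. Named are, in each direction, the 10 genes with the largest gaps, the 5 of highest mean and the 2 with the largest ratio of means, then 5 runs of neighbours, 3 genes on each side of the rule and the genes on the protein list. Others were named after their values were seen. Alternatives were scaling by median ratios, 0.5 FPKM added before the gap, a minimum mean of 20 FPKM, a gap of at least 1.5, pseudocounts of 0.1 and 1, other filters, a replicate block and each library left out. The study's own test, DEGSeq on counts, was not run. Gene names, GO and KEGG terms and sequences were not used here.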

Additional observations from a re-analysis of the deposited data

How the results depend on the processing

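In orange against white muscle 191 genes were separated, 104 higher and 87 lower. These counts changed by less than 1.5 times with scaling by median ratios and with 0.5 FPKM added before the gap. The total was 107 (70 higher and 37 lower) with a minimum mean of 20 FPKM and 99 (55 higher and 44 lower) with a gap of at least 1.5, both of which remove genes by construction. With each library left out in turn and at most 300 genes, it was 236 to 300, with 112 to 159 higher and 102 to 188 lower. The limma test called 219 of all genes and 39 of the 191. It called 66 and 10 without a filter, and 15 and 13 with a minimum mean of 10 FPKM, where the cause was not tested, and 21 to 263 and 5 to 33 with each library left out. Other pseudocounts and scaling kept both counts within 1.5 times. Deviations of orange and white replicates 1, 2 and 3 from their means correlated at 0.230, 0.151 and -0.189. These are of mixed sign and do not settle whether libraries are paired by replicate number. With a replicate block 187 genes and 33 of the 191 were called. For the 50 named genes, 5 of 400 log2 ratios under 8 alternatives moved by more than 1 SD, a wide bar in uneven genes, and their sign under an omitted library was fixed by the choice of genes. Moves of over 1.5 times are given with the genes above. Reads numbered under 100 in a library for 22 of the 191 genes and under 30 for 4, and how far depth limits the others was not tested.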

Other observations

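A large ratio of colour means did not by itself separate the colours. Of the other eligible genes, 17 had a ratio of means of at least 4, the colours of 13 overlapped, and in 12 a single library was at least 2 times every other. The highest ratios came from genes in which that library was white replicate 3. The gene evm.TU.Contig274.63 had 3.77, 102 and 1.80 FPKM in orange against 0.388, 69.7 and 5892 FPKM in white muscle. For evm.TU.Contig2072.1 the values were 1.65, 60.6 and 3.0 FPKM in orange against 0.567, 79.2 and 4238 FPKM in white muscle, and for evm.TU.Contig969.1 0.818, 49.8 and 3.32 FPKM in orange against 0.728, 57.2 and 3459 FPKM in white muscle. Replicate 2 was the highest orange and the middle white library in each. A different case was evm.TU.Contig119399.4, numbered next to the separated gene evm.TU.Contig119399.3. It had 30.3, 114 and 21.7 FPKM in orange against 302, 137 and 239 FPKM in white muscle, so its colours did not overlap but its gap was 1.204. These genes were chosen after their values were seen.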
